A study of Mus musculus with 6 samples.

Results

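Sciatic nerves of newborn mice were compared for 41 genes that encode writers and erasers of histone methylation, the enzymes and core complex subunits that put methyl groups on histone tails or take them off. The genes were chosen by symbol, with earlier results of these data known. All 41 were found among the 54838 gene rows of the count table and passed the low-count filter, which 18775 genes passed in all. They comprise 29 writers and 12 erasers. The mutant group, called cKO here, held 3 libraries of C57 Bl mice of genotype CnpCre Actl6a fl/fl, and the WT group held 3 libraries of C57 Bl wild-type mice. Both were taken at postnatal day 3 and share strain, tissue and age, and each library was made from about 150 ng of RNA. The Cre recombinase is driven by Cnp, a gene active in myelinating glia, so deletion of Actl6a is directed at Schwann cells, while RNA came from the whole nerve with its other cell types. The product of Actl6a, BAF53a, is an actin-like protein shared by the BAF, INO80 and TIP60 chromatin complexes. The labels do not say whether WT mice carried Cre or a floxed allele, which part of Actl6a is removed, or whether animals were pooled, so the p-values rest on variation among libraries that may in part be technical.

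Methylation of a histone lysine works by its position. H3K4 methylation marks active promoters and enhancers, H3K36 and H3K79 methylation mark transcribed gene bodies, and H3K9, H3K27 and H4K20 methylation accompany silent or compacted chromatin. SET-domain methyltransferases write most of these marks, Dot1l writes H3K79 without a SET domain, arginine methyltransferases modify arginines, and the Jumonji-domain and LSD1-type demethylases erase lysine methylation. In Schwann cells, the Polycomb repressive complex PRC2, which writes H3K27 methylation, is known for keeping nerve injury genes silent. These are transcript levels in whole nerve: neither the marks nor the proteins were measured, and fewer cells of a type and less RNA per cell cannot be told apart.

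Library totals ran from 31404107 to 32674317 counts in cKO and from 33084003 to 36760296 in WT. Actl6a read 42.4, 47.6 and 41.5 CPM (counts scaled to the size of the library) in cKO libraries and 48.6, 53.3 and 46.2 CPM in WT libraries, a log2 fold change of -0.17 (95% interval -0.40 to 0.05, edgeR quasi-likelihood adjusted p = 0.243). That was not a call with all libraries, and was one without cKO replicate 2 (log2 fold change -0.24, adjusted p = 0.0487). Cnp fell by 2.40 on the log2 scale (adjusted p = 0.00146). All 9 of 9 markers of myelinating Schwann cells fell, with a summed level of 6294 to 12565 CPM in cKO and 57236 to 61655 CPM in WT, while 8 of 9 macrophage markers rose, with a sum of 966.2 to 1332 CPM in cKO and 579.7 to 667.8 CPM in WT. Of 9 Schwann lineage markers 5 fell and 1 rose, with a sum of 1085 to 1800 CPM in cKO and 3097 to 3248 CPM in WT. Of 7 erythroid markers 4 rose (6745 to 21868 CPM in cKO, 2725 to 3940 CPM in WT), as did 3 of 9 fibroblast markers (35269 to 45188 CPM in cKO, 35185 to 35484 CPM in WT), 1 of 8 endothelial markers and 2 of 9 tested neuronal ones. Replicate 2 of cKO stood apart from all other libraries: its 15 skeletal muscle markers summed to 70992 CPM, against 4783 and 5591 CPM in the other cKO libraries and 3860 to 5522 CPM in WT. Calls of members that move without it are given both ways. Marker calls moved too: without it, 0 of the 7 erythroid markers were called higher. Of fibroblast markers 6 of 9, and of tested neuronal ones 7 of 9, were then called higher, beside 17.8% of all genes then tested. Xist and the Y-linked demethylase Kdm5d were both counted in every library. Xist was at 205 to 518 CPM in cKO and 252 to 1011 CPM in WT, and Kdm5d at 7.97 to 20.8 CPM in cKO and 9.54 to 29.6 CPM in WT. None of the markers named here was at 0 in all libraries, and the part of cell makeup in the results below was not tested.

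Of the 41 genes, 9 fell in cKO nerve and 0 rose. The 9 that fell, 22.0% of the members, stand beside 10.3% of all tested genes called lower and 8.55% called higher (adjusted p below 0.05, over 18775 genes), and beside 12.5% lower among genes within the members' range of expression, of which 8.39% were called higher. They were the H3K4 family members Kmt2d, Kmt2e and Kmt2b, the H3K9 and H3K36 demethylases Kdm4a and Kdm4b, the H3K9 methyltransferase Suv39h1 and demethylase Kdm3a, and the H4K20 methyltransferases Kmt5a and Kmt5b. Counted by role, with Kmt2e listed as a writer, 6 of 29 writers fell, with a median log2 fold change of -0.18 over the 29. Of 12 erasers 3 fell, with a median of -0.21.

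The other 32 members were not called. The unadjusted p was below 0.05 for 20 of the 41, called ones included, all with a negative fold change. The share of all tested genes with such a p was not counted, so these 20 have no background to be read against. DESeq2 called 11 lower and 0 higher, adding Nsd1 and Ash1l. Over all genes DESeq2 also called more than edgeR, lower and higher alike, so its count of members stands beside a larger total. The median log2 fold change of the 41 was -0.19, within a range of -0.83 to 0.32, against a median of 0.04 over all tested genes. A negative fold change was fitted for 35 members, or 85.4%, beside 45.7% of all genes. Every cKO library lay below every WT library for 21 members (51.2%, beside 21.7% of all genes), and above for Ezh2 alone (beside 21% of all genes). Without cKO replicate 2, 19 members (46.3%) were called lower and 0 higher, while 17.6% of all genes then tested were called lower and 17.8% higher. Without WT replicate 1, 2 or 3 the count was 3 each time, and without cKO replicate 3 it was 5. Calls over all genes moved too: 1929 were lower with all libraries, and 790 to 3398 with 1 library left out.

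**Figure D1:**
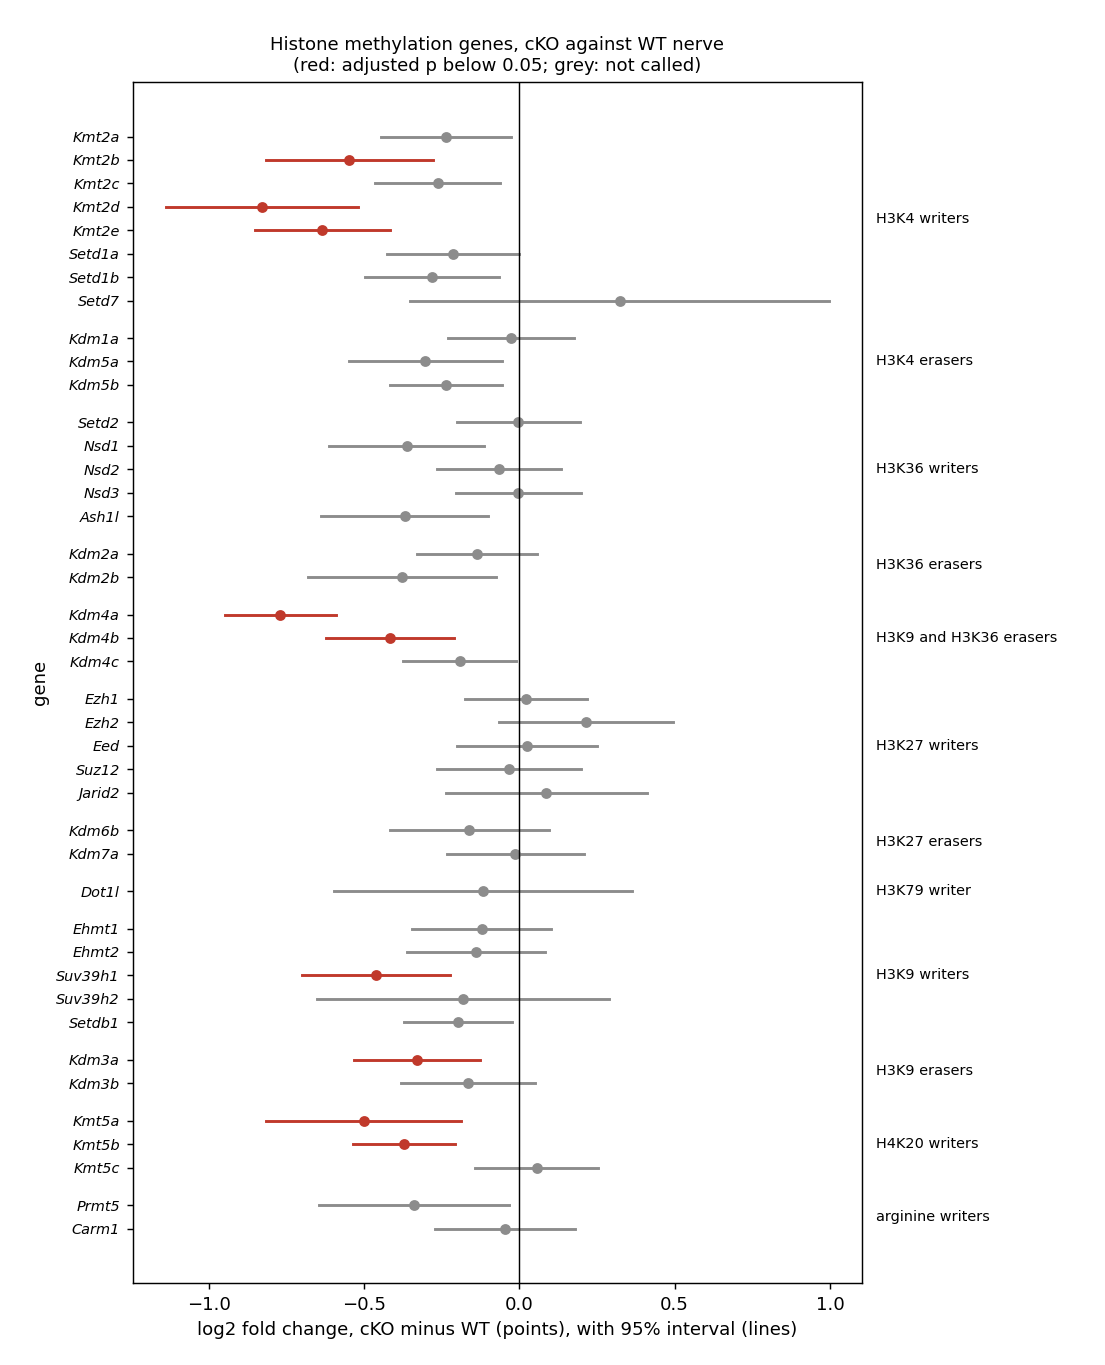
Log2 fold change, cKO minus WT (x axis), of each of the 41 genes (y axis, in blocks by histone mark), with its 95% interval as a line. The 9 called genes are in red and all lie left of 0, between -0.83 and -0.33, while the 5 genes of the H3K27 writer block lie between -0.03 and 0.21.

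The largest fall was that of an H3K4 writer. Of the 8 genes listed as H3K4 writers, Kmt2e included, 3 were called, with a median log2 fold change of -0.27 over the 8. Kmt2d (chr15:98831669-98871204, minus strand, GRCm38 as all gene positions here), which with Kmt2c writes H3K4 monomethylation at enhancers, read 87.2, 90.0 and 74.2 CPM in cKO libraries and 172, 131 and 144 CPM in WT libraries. Kmt2d thus averaged 83.8 ± 8.44 CPM in cKO and 149 ± 20.8 CPM in WT (SD, n = 3 each), and fell by 0.83 on the log2 scale (SE 0.130, 95% interval -1.14 to -0.52, edgeR quasi-likelihood adjusted p = 0.00737). Its groups did not overlap, although the WT libraries themselves spread more widely than those of any other H3K4 writer. Kmt2e (chr5:23434441-23504235, plus strand), a relative with a SET domain but no known histone methyltransferase activity that binds methylated H3K4, read 79.8, 70.0 and 71.7 CPM in cKO and 123, 108 and 113 CPM in WT. Kmt2e fell by 0.63 (SE 0.0919, adjusted p = 0.00551), and again no cKO library reached a WT one. Srpk2, on the opposite strand, covers 9.31% of its exonic bases, and counting took no account of strand. Kmt2b (chr7:30568858-30588726, minus strand), a promoter-bound H3K4 methyltransferase also known as MLL2, read 76.9, 66.6 and 60.3 CPM in cKO and 105, 91.3 and 101 CPM in WT. Kmt2b fell by 0.55 (SE 0.113, adjusted p = 0.0187) with separate groups. That call was lost without any 1 WT library (adjusted p = 0.0513 to 0.085) or without cKO replicate 3 (adjusted p = 0.058).

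The calls of Kmt2d and Kmt2e held in each of the 6 fits that left out 1 library. Kmt2a (MLL1), Kmt2c, Setd1a and Setd1b, the last pair of which write promoter H3K4 trimethylation, were not called, with log2 fold changes of -0.21 to -0.28 and adjusted p of 0.0744 to 0.145. Kmt2a, for one, read 79.5, 78.9 and 78.5 CPM in cKO and 103, 88.6 and 87.8 CPM in WT, so its groups were separate by a margin smaller than the range within WT. Setd1a is uncertain because 52.3% of its exonic bases also belong to Gm49388 on the same strand. Without cKO replicate 2, 6 of the 8 H3K4 writers were called lower, with Kmt2a, Kmt2c and Setd1b added (adjusted p = 0.0291 to 0.0473). Setd7, an H3K4 monomethyltransferase, had 55.1, 107 and 53.6 CPM in cKO and 60.6, 56.1 and 55.4 CPM in WT. Its fitted log2 fold change of 0.32 (95% interval -0.35 to 0.996, adjusted p = 0.440) rested on cKO replicate 2, the library high in muscle markers, and was -0.08 without it (adjusted p = 0.478).

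Summed per length, the 8 H3K4 writers came to 38.97 ± 3.27 RPKM (CPM per kilobase of exon) in cKO and 50.7 ± 3.65 RPKM in WT (SD, n = 3 each). With all libraries none of the 3 H3K4 erasers was called by edgeR or DESeq2, although 2 (Kdm5a and Kdm5b) had an unadjusted p below 0.05 and their median of -0.24 was close to that of the writers. Kdm5b, a demethylase of H3K4 trimethylation, had the smallest p: it read 55.7, 52.5 and 57.0 CPM in cKO and 63.1, 64.1 and 67.3 CPM in WT (log2 fold change -0.24, 95% interval -0.42 to -0.05, adjusted p = 0.0748). Its groups did not overlap. Kdm5a, which acts on the same mark, had a log2 fold change of -0.30 (adjusted p = 0.0889), and was called lower without cKO replicate 1 (-0.39, adjusted p = 0.0447) and with voom sample weights (-0.27, adjusted p = 0.0339). For Kdm1a (LSD1), the eraser with the highest level per length of the 3, the values were 13.9 RPKM in cKO and 14.1 RPKM in WT, with a log2 fold change of -0.03 (95% interval -0.23 to 0.18, adjusted p = 0.849).

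**Figure D2:**
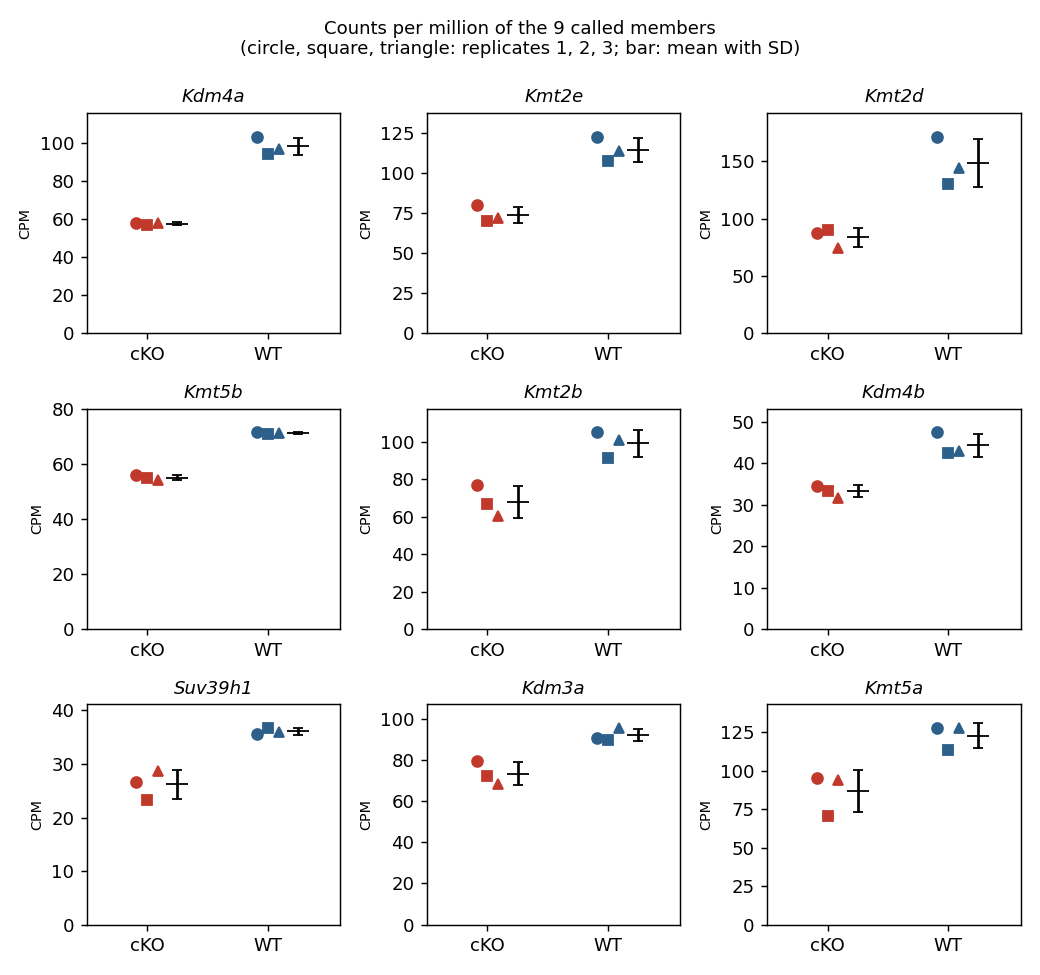
CPM (y axis, from 0) of the 9 called genes in the 3 cKO libraries (left, red) and the 3 WT libraries (right, blue), with the mean and SD as a bar beside each group. In every panel the 3 cKO points lie below the 3 WT points, and the points of Kmt5b lie close together within each group, at 55.2 ± 0.847 CPM in cKO and 71.3 ± 0.400 CPM in WT (SD, n = 3 each).

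Promoter windows from RefSeq (build GRCm38.p6, 250 bases before to 50 after a RefSeq start) were at hand for 28 of the 41 genes. They are printed for Kmt2d and Kdm4a, the called genes with the largest fold changes, and for Ezh2 and Kmt5c, whose fitted changes were above 0. Capitals mark matches, on either strand, to CCAAT (NF-Y letters), GGGCGG (a GC box), CACGTG (an E box), TGACGTCA (a CRE) and the E2F-type words TTTCCCGC and TTTGGCGC. No matches overlap each other in these windows.
Kmt2d: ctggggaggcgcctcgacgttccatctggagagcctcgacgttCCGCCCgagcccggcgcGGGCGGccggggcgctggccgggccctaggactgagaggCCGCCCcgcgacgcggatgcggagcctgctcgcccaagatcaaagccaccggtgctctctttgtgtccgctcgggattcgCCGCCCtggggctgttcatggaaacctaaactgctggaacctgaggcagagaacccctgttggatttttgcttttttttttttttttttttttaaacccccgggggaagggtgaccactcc
Kdm4a: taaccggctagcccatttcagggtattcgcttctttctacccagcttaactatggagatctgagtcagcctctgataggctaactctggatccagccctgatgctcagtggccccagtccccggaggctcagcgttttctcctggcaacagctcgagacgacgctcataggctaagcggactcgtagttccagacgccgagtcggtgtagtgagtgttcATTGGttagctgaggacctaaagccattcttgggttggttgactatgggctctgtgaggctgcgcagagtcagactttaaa
Ezh2: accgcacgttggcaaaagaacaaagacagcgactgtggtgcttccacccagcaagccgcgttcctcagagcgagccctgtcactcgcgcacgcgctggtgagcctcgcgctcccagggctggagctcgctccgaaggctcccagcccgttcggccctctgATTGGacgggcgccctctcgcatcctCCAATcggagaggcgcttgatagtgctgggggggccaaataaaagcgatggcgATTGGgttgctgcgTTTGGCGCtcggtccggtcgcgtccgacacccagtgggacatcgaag
Kmt5c: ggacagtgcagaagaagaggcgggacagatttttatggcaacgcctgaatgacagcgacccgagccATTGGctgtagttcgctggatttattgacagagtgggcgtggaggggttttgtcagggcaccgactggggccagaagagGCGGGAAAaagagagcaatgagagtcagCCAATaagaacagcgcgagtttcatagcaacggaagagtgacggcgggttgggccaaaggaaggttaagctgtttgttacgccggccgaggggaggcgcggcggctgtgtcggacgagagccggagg
These windows lie on the minus strand at chr15:98871156-98871455 for Kmt2d, chr4:118179994-118180293 for Kdm4a and chr6:47594981-47595280 for Ezh2, and on the plus strand at chr7:4739877-4740176 for Kmt5c. The counted Ezh2 gene begins farther upstream, at chr6:47595341, so its window lies inside that gene. Kmt2d held 4 matches to GGGCGG and none to the other letters, Kdm4a held 1 CCAAT, Ezh2 held 3 CCAAT and 1 TTTGGCGC, and Kmt5c held 2 CCAAT and 1 TTTCCCGC. Among 32851 windows, 35.7% held GGGCGG, 37.4% CCAAT, 7.15% CACGTG, 1.79% TGACGTCA, 1.07% TTTCCCGC and 0.514% TTTGGCGC. Of the 28 members with a window, 19 had a match to GGGCGG, 13 to CCAAT, 2 to CACGTG and 1 to TGACGTCA. These counts are of genes with a match in any of their windows, while the percentages are of single windows, so the measures differ. An E2F-type word was found for 3 members, Ezh2, Kmt5c and Suz12, beside 1.56% of all windows. The printed Ezh2 and Kmt5c thus do not stand for all members fitted above 0. Jarid2 and Eed, also fitted above 0 and not printed, matched CCAAT and held no E2F-type word. A match is a description of the letters and was not tested against the fold changes.

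The Kdm4 family of H3K9 and H3K36 demethylases lay below WT in all 3 members; 2 of them were called, and the median log2 fold change was -0.42. Kdm4a (chr4:118136957-118180043, minus strand) read 58.3, 56.8 and 58.1 CPM in cKO libraries and 104, 94.4 and 97.3 CPM in WT libraries. At 57.8 ± 0.818 CPM in cKO and 98.4 ± 4.67 CPM in WT (SD, n = 3 each), Kdm4a fell by 0.77 on the log2 scale (SE 0.0751, 95% interval -0.95 to -0.59, edgeR quasi-likelihood adjusted p = 0.00149). The gap was many times the spread in either group, and the call held without each library in turn (adjusted p = 7.77e-06 to 0.0149). Kdm4b (chr17:56326062-56402870, plus strand) read 34.6, 33.3 and 31.7 CPM in cKO and 47.4, 42.4 and 43.0 CPM in WT, and fell by 0.42 (SE 0.0867, adjusted p = 0.0191). Although the groups were separate, the Kdm4b call was lost without any 1 WT library (adjusted p = 0.0642 to 0.0851) or cKO replicate 3 (adjusted p = 0.0671). Kdm4c, which was not called, had a log2 fold change of -0.19 (95% interval -0.37 to -0.01, adjusted p = 0.129), and was called only without cKO replicate 2 (adjusted p = 0.0417) and under 2 other alternatives. Together the Kdm4 genes summed to 23.0 ± 0.367 RPKM in cKO and 33.1 ± 1.41 RPKM in WT.

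No H3K36-specific enzyme was called by edgeR with all libraries: 0 of 5 writers, with a median of -0.07, and 0 of 2 erasers, with a median of -0.26. Setd2, the enzyme of H3K36 trimethylation, had an interval of -0.20 to 0.20 around a log2 fold change near 0 (adjusted p = 0.988), and the dimethylase Nsd3 was as close (adjusted p = 0.984). Nsd1, another H3K36 dimethylase, read 185, 198 and 159 CPM in cKO and 241, 228 and 229 CPM in WT. With means of 181 ± 19.97 CPM in cKO and 232 ± 7.07 CPM in WT (SD, n = 3 each), its log2 fold change was -0.36 (95% interval -0.61 to -0.11, adjusted p = 0.0557), just short of the threshold despite separate groups. Ash1l, the remaining one with separate groups, had -0.37 (adjusted p = 0.0643). DESeq2 called both (adjusted p = 0.019 for Nsd1 and 0.036 for Ash1l). Without cKO replicate 2 both were called lower, Nsd1 at -0.44 (adjusted p = 0.00141) and Ash1l at -0.45 (adjusted p = 0.00208). Kdm2b, an H3K36 demethylase that also recruits a Polycomb complex to CpG islands, read 10.8, 13.2 and 11.4 CPM in cKO and 16.5, 13.7 and 15.8 CPM in WT (log2 fold change -0.38, 95% interval -0.68 to -0.07, adjusted p = 0.0845). Its groups stood apart only narrowly, and without cKO replicate 2 it was called (-0.46, adjusted p = 0.00803). Its paralogue Kdm2a had -0.14 (adjusted p = 0.279).

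Of the 5 H3K9 writers 1 was called, with a median of -0.18. Suv39h1 (chrX:8061171-8074760, minus strand), which writes H3K9 trimethylation in pericentromeric heterochromatin, read 26.7, 23.3 and 28.7 CPM in cKO and 35.5, 36.7 and 36.1 CPM in WT, and fell by 0.46 (SE 0.101, 95% interval -0.70 to -0.22, edgeR quasi-likelihood adjusted p = 0.0226). The WT libraries were nearly level and all 3 cKO libraries lay below them. Gm14820, on the opposite strand, covers 14.6% of its exonic bases, and strand was not used in counting. Suv39h2, its paralogue, was the member of lowest level, at 5.18 CPM in cKO and 5.89 CPM in WT, where an interval of -0.65 to 0.29 left the direction undetermined (adjusted p = 0.540). G9a (Ehmt2) and GLP (Ehmt1), which write H3K9 dimethylation together, and Setdb1, which silences retroelements, had log2 fold changes of -0.12 to -0.20 and were not called (adjusted p = 0.109 to 0.394), though Setdb1 was without cKO replicate 2 (-0.22, adjusted p = 0.0441). Ehmt2 had the highest level per length of these writers, at 20.5 RPKM in cKO and 22.6 RPKM in WT. Of the H3K9 erasers, Kdm3a, which removes H3K9 mono- and dimethylation (chr6:71588972-71632990, minus strand) read 79.4, 72.1 and 68.3 CPM in cKO and 90.9, 89.7 and 95.5 CPM in WT, and fell by 0.33 (SE 0.0859, adjusted p = 0.0402). Its groups did not overlap, but it was the call lost most often, among others without each WT library (adjusted p = 0.11 to 0.155), without cKO replicate 3 (adjusted p = 0.115), without the low-count filter (adjusted p = 0.0547) and with the length trend removed (adjusted p = 0.0695). The Suv39h1 call was lost without any 1 WT library (adjusted p = 0.0838 to 0.0964). Kdm3b had -0.17 (adjusted p = 0.238), with 24.6% of its exonic bases under Gm26538 on the opposite strand.

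H4K20 methylation is started by Kmt5a, which places the single methyl group in dividing cells, and extended by Kmt5b and Kmt5c. Both Kmt5a and Kmt5b fell, and Kmt5c did not pass the test. Kmt5a (chr5:124439930-124462308, plus strand) read 95.4, 70.9 and 94.03 CPM in cKO and 128, 113 and 128 CPM in WT, and fell by 0.50 (SE 0.132, 95% interval -0.81 to -0.19, edgeR quasi-likelihood adjusted p = 0.0415). Replicate 2 was the lowest of its cKO libraries, and without it the log2 fold change was -0.38 (adjusted p = 0.00253). Kmt5b (chr19:3767421-3818303, plus strand) read 56.1, 55.1 and 54.4 CPM in cKO and 71.6, 70.9 and 71.5 CPM in WT, and fell by 0.37 (SE 0.0689, 95% interval -0.53 to -0.21, adjusted p = 0.0131). In both groups the Kmt5b libraries were nearly level, well apart from each other's range. Kmt5c read 32.0, 34.5 and 35.7 CPM in cKO and 32.9, 33.4 and 31.9 CPM in WT, and its groups overlapped (log2 fold change 0.06, 95% interval -0.14 to 0.25, adjusted p = 0.662). Without 1 WT library both calls were lost (Kmt5a adjusted p = 0.0939 to 0.143, Kmt5b 0.0622 to 0.0724), and without cKO replicate 3 that of Kmt5a (adjusted p = 0.0739). Of 13 cell-cycle markers 5 rose (Mcm3, Mcm4, Mcm6, Pcna and E2f1), beside 8.55% of all tested genes. The 13 summed to 1533 to 1781 CPM in cKO and 1229 to 1464 CPM in WT. Except for E2f1, these calls were lost without any 1 WT library. The other 8 were not called, among them Mki67, Top2a, Ccnb1, Cdk1, Aurkb and Birc5. Without cKO replicate 2, 9 of the 13 were called higher, beside 17.8% of all genes then tested.

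The H3K27 system showed no call in either direction by edgeR or DESeq2, and 0 of its 7 genes had an unadjusted p below 0.05: 0 of 5 PRC2 genes, with a median of 0.02, and 0 of 2 erasers, with a median of -0.09. Ezh2, the PRC2 methyltransferase of dividing cells, read 50.8, 50.6 and 64.4 CPM in cKO and 50.4, 47.9 and 44.7 CPM in WT. With 55.3 ± 7.91 CPM in cKO and 47.7 ± 2.85 CPM in WT (SD, n = 3 each), it had a fitted log2 fold change of 0.21 (95% interval -0.07 to 0.49; edgeR quasi-likelihood adjusted p = 0.242). Every cKO library was above every WT library, but 2 of them by little, and replicate 3 was by far the highest: leaving it out gave a log2 fold change of 0.09 (adjusted p = 0.557), while leaving out cKO replicate 2 gave 0.27 (adjusted p = 0.0549). Ezh1, the methyltransferase of resting cells, and the core subunits Eed and Suz12 had log2 fold changes of 0.02, 0.02 and -0.03, with all 3 intervals inside -0.26 to 0.25. Jarid2, an accessory subunit that guides PRC2 to chromatin, read 37.2, 51.4 and 38.0 CPM in cKO and 39.7, 39.6 and 39.8 CPM in WT. Its value in cKO replicate 2 was the highest of the 6, and its log2 fold change of 0.09 (adjusted p = 0.676) became -0.08 without that library (adjusted p = 0.465).

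Summed per length, the 5 PRC2 genes came to 40.1 ± 0.431 RPKM in cKO and 38.8 ± 0.588 RPKM in WT (SD, n = 3 each). Kdm6b (JMJD3), the H3K27 demethylase known for opening Polycomb-silenced genes, read 56.2, 48.8 and 49.3 CPM in cKO and 64.4, 52.8 and 55.3 CPM in WT (log2 fold change -0.16, 95% interval -0.42 to 0.10, adjusted p = 0.326). Its groups overlapped. The other H3K27 eraser among the members, Kdm7a, acts on H3K9 and H3K27 and had a log2 fold change of -0.01 (adjusted p = 0.936).

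Dot1l, the H3K79 methyltransferase, read 73.8, 117 and 72.9 CPM in cKO and 106, 87.3 and 92.1 CPM in WT (log2 fold change -0.12, 95% interval -0.60 to 0.36, edgeR quasi-likelihood adjusted p = 0.710). The groups overlapped through cKO replicate 2, and without it Dot1l was called lower (-0.38, adjusted p = 0.00554). A like pattern held for Prmt5, which writes symmetric dimethylarginine: it read 48.8, 63.1 and 45.7 CPM in cKO and 66.3, 64.6 and 68.4 CPM in WT (log2 fold change -0.34, 95% interval -0.65 to -0.03, adjusted p = 0.114). Here the groups did not overlap, and without cKO replicate 2 the value was -0.49 (adjusted p = 0.000358). Carm1, which writes asymmetric dimethylarginine, had -0.05 (adjusted p = 0.759), with 21.1% of its exonic bases under Yipf2 on the opposite strand. The muscle methyltransferase Smyd1, outside the 41, shows the scale of that library's difference: it read 19.2, 287 and 20.6 CPM in cKO and 27.2, 13.5 and 15.5 CPM in WT.

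**Figure D3:**
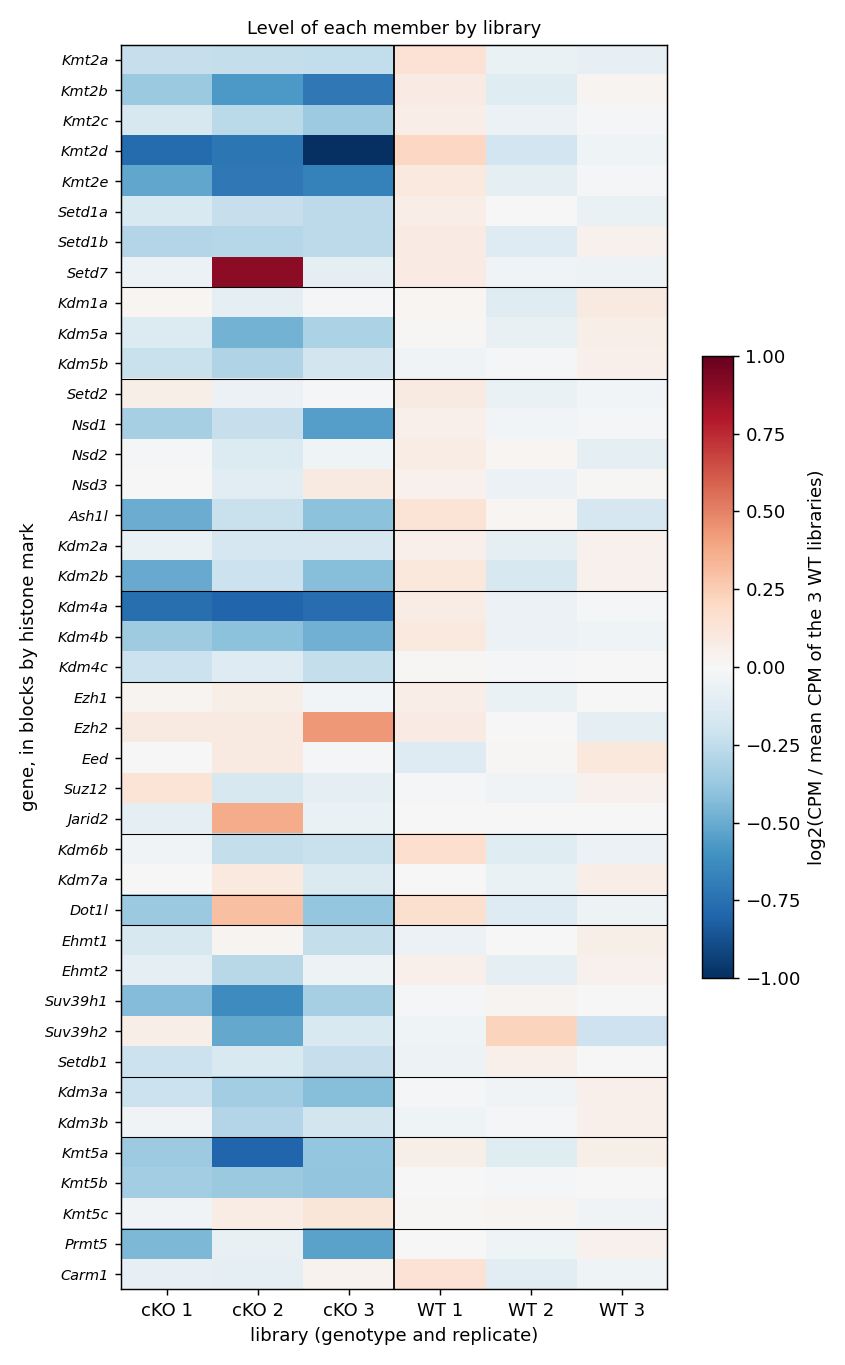
Level of each of the 41 genes (rows, in blocks by histone mark) in the 3 cKO and then the 3 WT libraries (columns), as log2 of CPM over the mean CPM of the WT libraries. Most cKO cells are blue (below the WT mean), and Setd7, Jarid2 and Dot1l are red in cKO replicate 2 alone among the cKO libraries.

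Per length, the members ranged from 1.09 RPKM (Kdm2b) to 20.5 RPKM (Ehmt2) in cKO and from 1.34 RPKM (Suv39h2) to 23.1 RPKM (Kmt5a) in WT. Among H3K4 writers the level in cKO ran from 2.35 RPKM for Setd1b (2.85 RPKM in WT) to 7.08 RPKM for Kmt2b (10.3 RPKM in WT). Among H3K36 writers it ran from 5.22 RPKM for Nsd3 (5.23 RPKM in WT) to 10.8 RPKM for Setd2 (10.8 RPKM in WT), and among PRC2 genes from 4.34 RPKM for Jarid2 (4.09 RPKM in WT) to 14.3 RPKM for Suz12 (14.6 RPKM in WT). All 41 together summed to 305.4, 303.7 and 295.2 RPKM in cKO libraries and 364.2, 338.2 and 353.1 RPKM in WT libraries. Each cKO sum lay below each WT sum. Within paralogue pairs the balance was compared as the log2 ratio of their RPKM, as a description with no test. Kmt2c over Kmt2d averaged -0.15 in cKO and -0.71 in WT, and Kmt5b over Kmt5c averaged -1.12 in cKO and -0.70 in WT. For both pairs the 3 cKO ratios lay outside the WT range. Nsd1 over Nsd3 averaged 0.98 in cKO and 1.35 in WT, with separate groups, and Ezh1 over Ezh2 averaged -0.84 in cKO and -0.65 in WT, with overlap. Suv39h1 over Suv39h2 averaged 2.10 in cKO and 2.37 in WT, and Kdm5a over Kdm5b 0.62 in cKO and 0.69 in WT, both with overlapping libraries.

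**Figure D4:**
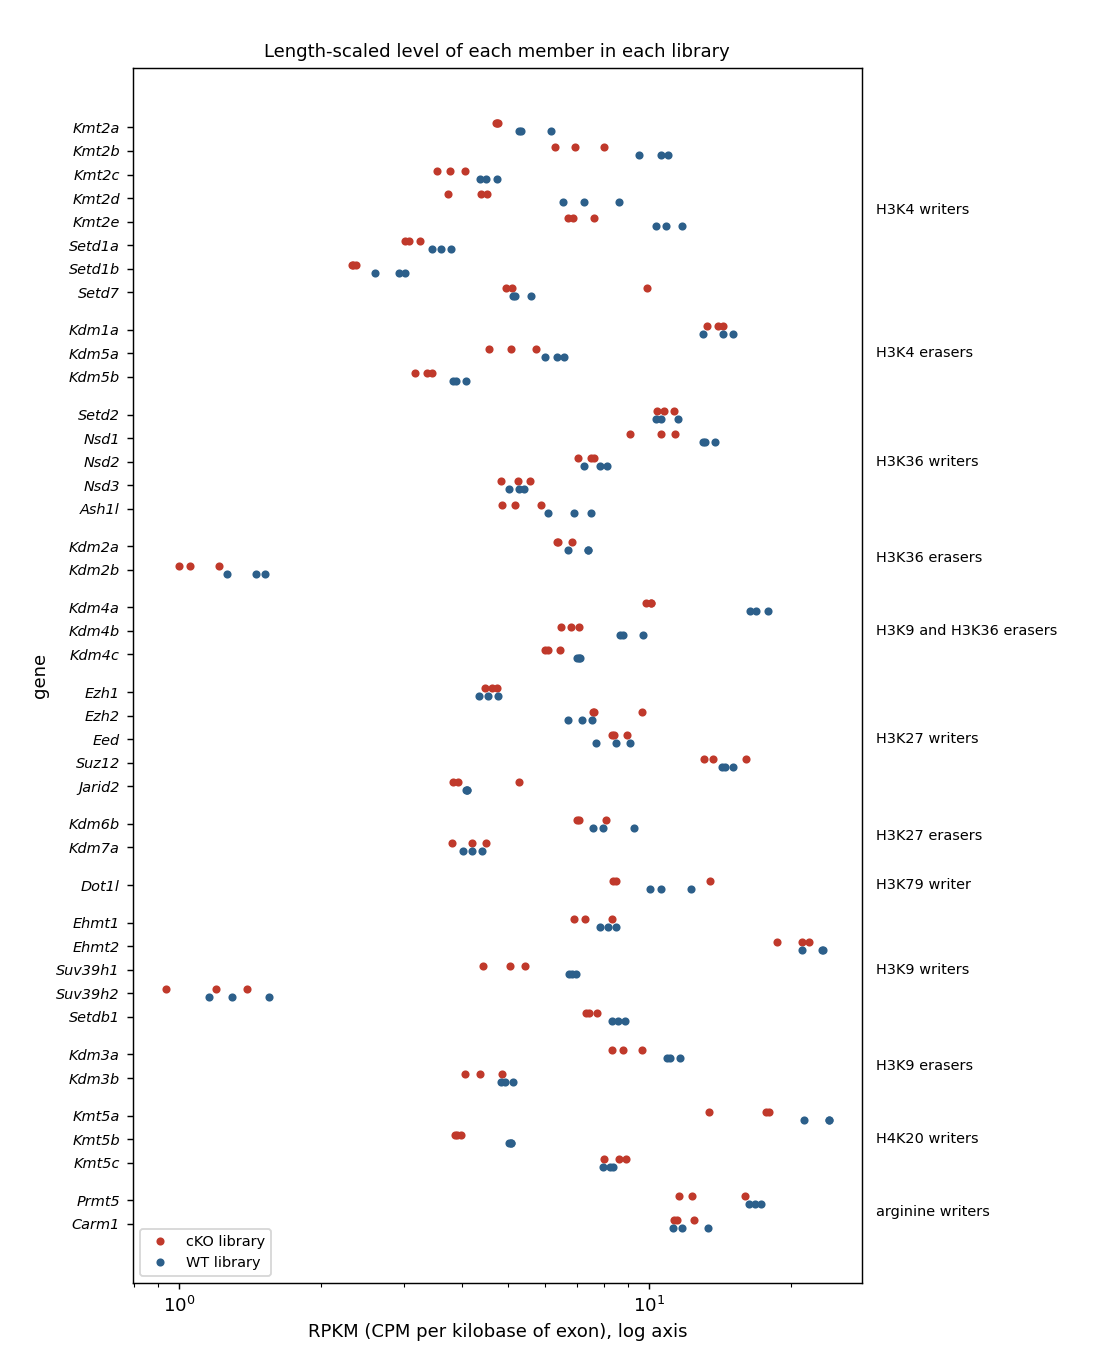
RPKM (x axis, log scale) of each of the 41 genes in each cKO library (red, upper dots) and WT library (blue, lower dots), in blocks by histone mark. Levels span from about 1 RPKM for Kdm2b and Suv39h2 to over 20 RPKM for Ehmt2, and the red and blue dots of Kdm4a, Kmt2d and Kmt2e are separate.

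Many of these genes are long, and fold changes in these libraries varied with exonic length. Genes of at least 12000 exonic bases (853 of all tested) had a median log2 fold change of -0.09, with 18.6% called lower, while genes under 4000 bases (10176) had a median of 0.10, with 7.41% called lower. The 13 members in the longest class had a median of -0.26 and 2 calls. In the class of 8000 to 12000 bases, 10 members had a median of -0.12 and 3 calls, against a median of -0.06 and 15.4% lower among all genes of that class. The 16 members of 4000 to 8000 bases had a median of -0.17 and 4 calls, against 0.01 and 12.4%. With the length trend removed from the counts, the members' median was -0.12 and 8 of the 41 were still called lower. Over all genes slightly fewer were then called, lower and higher alike.

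Calls among genes that work with these enzymes are given beside the 10.3% of all tested genes called lower and 8.55% called higher. With all libraries, and apart from the further erasers, the shares called lower were near or below that of all genes. Of 11 tested subunits of the COMPASS complexes of H3K4 writers, shared or particular to some of them, 1 fell (9.09%), and the median was -0.13. It was Ncoa6 of the Kmt2c and Kmt2d complex, with 61.9, 67.2 and 64.8 CPM in cKO and 83.9, 76.8 and 79.7 CPM in WT (log2 fold change -0.31, edgeR quasi-likelihood adjusted p = 0.0351). A listed subunit, Pagr1a, had 0 counts in all libraries. Of 14 further erasers 4 fell (28.6%) and 0 rose, with a median of -0.27. Kdm6a (UTX), an H3K27 demethylase of the same Kmt2c and Kmt2d complex, read 45.4, 47.7 and 46.0 CPM in cKO and 68.0, 61.2 and 59.1 CPM in WT, and fell by 0.44 (adjusted p = 0.0150). Kdm6a lies on the X chromosome, Xist differed among libraries, and the part of sex in this fall was not tested. The demethylases Hr (-0.62, adjusted p = 0.0170), Phf8 (-0.44, adjusted p = 0.0351) and Phf2 (-0.33, adjusted p = 0.0367) were the others. All of these calls were lost without any 1 WT library (adjusted p = 0.0511 to 0.13) or without cKO replicate 3 (adjusted p = 0.0534 to 0.102), and those of Ncoa6 and Phf2 also without cKO replicate 1 (adjusted p = 0.0802 and 0.0808).

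Of 16 other lysine methyltransferases 1 fell (6.25%, beside 10.3% of all tested genes). It was Prdm16, a SET-domain factor, which read 19.5, 13.9 and 24.2 CPM in cKO and 47.4, 42.7 and 43.3 CPM in WT (log2 fold change -1.21, edgeR quasi-likelihood adjusted p = 0.00815). No cKO library came near the WT range, and the call held without each library in turn. Of 19 genes of PRC1, the Polycomb complex that ubiquitinates histone H2A, and of methyl-lysine readers, 2 fell and 1 rose. Bmi1, a core PRC1 subunit that restrains the Cdkn2a locus, read 52.2, 41.7 and 43.4 CPM in cKO and 83.8, 89.0 and 88.0 CPM in WT, and fell by 0.93 (adjusted p = 0.00231), a call that also held without each library. Cbx2 fell by 0.66 (adjusted p = 0.0298), and Pcgf5, of a variant PRC1, rose, with a log2 fold change of 0.58 (adjusted p = 0.0158). Both calls were lost without any 1 WT library (adjusted p = 0.0712 to 0.116), and that of Cbx2 without cKO replicate 3 (adjusted p = 0.0699). Of 7 PRC2 partners, Epop rose with 5.35, 3.01 and 5.80 CPM in cKO and 2.41, 1.70 and 1.83 CPM in WT (log2 fold change 1.26, adjusted p = 0.0267), a low-level gene whose call was lost without any 1 WT library (adjusted p = 0.0706 to 0.116), without cKO replicate 1 (adjusted p = 0.0621) and again without the cKO library of replicate 3 (adjusted p = 0.0839). The 11 further arginine methyltransferases and partners had a median of -0.03, and 0 of them had an unadjusted p below 0.05 with all libraries. With cKO replicate 2 left out, 3 COMPASS subunits (27.3%), 3 other lysine methyltransferases (18.8%) and 2 further arginine genes (18.2%) were called lower. That stands beside 17.6% of all genes then tested. PRC2 partners then had 1 lower and 2 higher, PRC1 and reader genes 2 lower and 2 higher, and further erasers 4 lower.

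**Figure D5:**
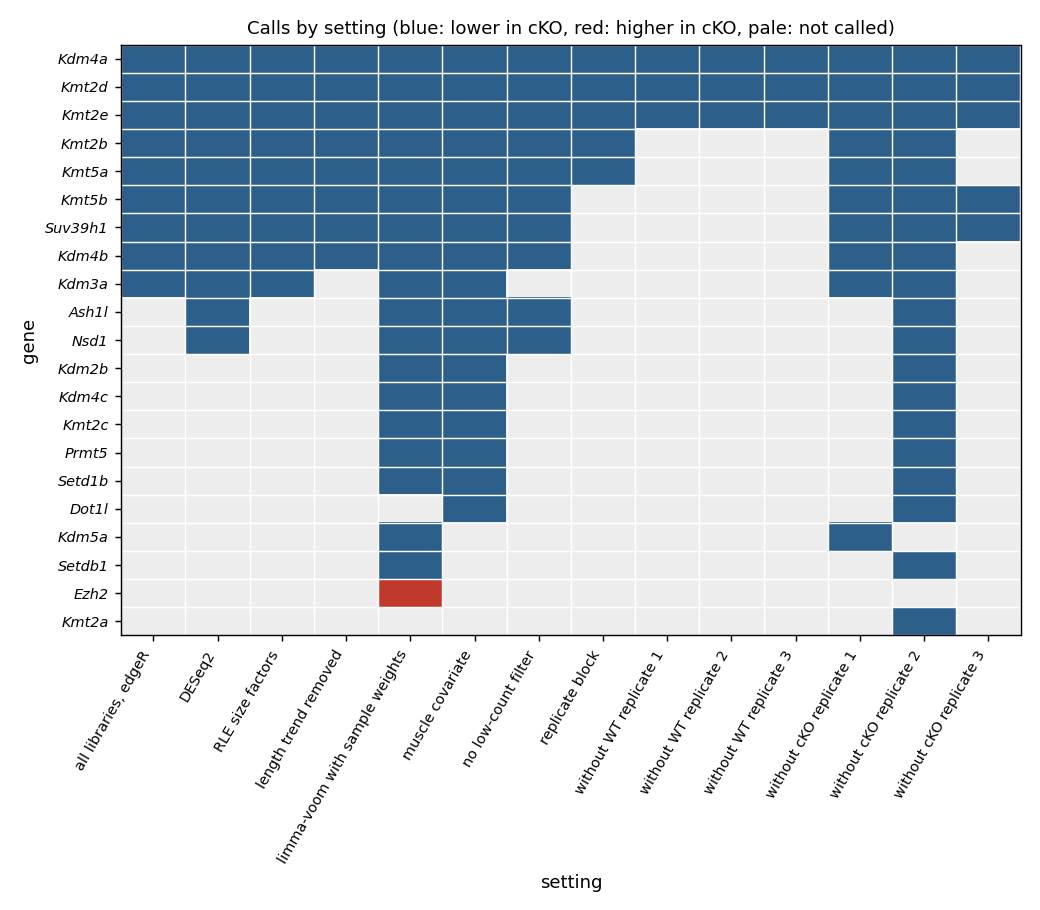
Calls (blue for lower and red for higher in cKO, pale for not called) of each member called at least once (y axis) under the edgeR fit of all libraries and the 13 alternatives (x axis). Kmt2d, Kmt2e and Kdm4a are blue in every column, and the column without cKO replicate 2 holds the most blue cells, 19.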

How the data were processed

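RNA of 3 cKO and 3 WT sciatic nerve libraries was analysed, grouped by the genotype in the labels. The authors deposited raw counts of fragments per gene in 1 table; per the file headers they came from featureCounts 1.6.1 on exons of Ensembl GRCm38 release 95, with both ends mapped, mapping quality of at least 20 and no use of strand. The table also gives the exonic length of each gene. The submitters' processing notes name Subread 2.0, DESeq2 1.3, mm10 and GRCm38; the sources used here give no aligner settings. Symbols from GENCODE M21 matched 54723 of 54838 identifiers and not 115; 0 rows lacked a gene name.

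CPM (counts scaled to TMM library sizes) and RPKM were computed here. Tests used edgeR 4.0.16 in R 4.3.3 (filterByExpr with a minimum count of 10, TMM, robust quasi-likelihood F test, 2-sided, 4 residual degrees of freedom), Benjamini-Hochberg adjusted over 18775 genes, with a gene called below 0.05. Standard errors and 95% intervals come from the quasi-likelihood statistic. The script was tested on simulated counts. Totals of 31404107 to 36760296 per library set the precision. Libraries of a group differed by more than counting error (over genes, chi-square divided by its degrees of freedom was 28.8 to 312 between cKO and 8.26 to 14.9 between WT libraries), so each is 1 replicate. The 13 alternatives were DESeq2 1.42.0, RLE factors, no filter, a length correction, limma 3.58.1 voom with sample weights, a muscle covariate, a replicate block and the 6 fits that leave out 1 library.

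The members and all gene lists were chosen with earlier results of these data known. Values per library are given for called members and, in a mark group with none called, for the member with the smallest p. Of each list of partner genes, the called genes are named, up to 4 by smallest p; which of these got values per library (the one with the smallest p in each list) was chosen after the values were seen. Kmt2a, Setd7, Jarid2, Kmt5c, Ash1l and Smyd1 were named with values after their values were seen. Of the partner genes, those that share reads with an overlapping gene were not checked.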

Additional observations from a re-analysis of the deposited data

How the results depend on the processing

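The calls of Kmt2d, Kmt2e and Kdm4a held under all 13 alternatives. The members called lower, 9 with all libraries, numbered 11 with DESeq2, 9 with RLE factors, 8 with the length trend removed, 10 without the low-count filter, 17 with a muscle covariate and 18 with voom sample weights, which also called Ezh2 higher (1 member; otherwise 0). Leaving out 1 library gave 3 to 19 (10 without cKO replicate 1). Over all genes, the genes called higher, 1605 in the report, numbered 3228 with voom weights, 3220 with the muscle covariate and 449 to 3425 with 1 library left out, and the genes called lower, 1929 in the report, numbered 3159, 3279 and 790 to 3398. The members' median of -0.19 was -0.12 with the length trend removed and -0.24 to -0.19 with 1 library left out. The cause of these shifts was not tested.

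The labels do not say whether replicate numbers pair the libraries. Deviations from the group means correlated at -0.223, -0.231 and -0.0797 between same-numbered libraries, and at -0.118 to 0.216 between the others. These values cannot decide on pairing, because the deviations of only 3 libraries sum to 0 in each group. With the replicate block, genes called higher numbered 744, genes called lower 1108 and members called lower 5. The calls lost were those of Kdm3a (adjusted p = 0.116), Kdm4b (0.0641), Suv39h1 (0.0705) and Kmt5b (0.0702).

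Some uncalled members changed sign. With the length trend removed Setd2 was at 0.083, Nsd2 at 0.061, Nsd3 at 0.12 and Kdm7a at 0.063. With voom weights Setd7 was at -0.0098, Setd2 at 0.024, Nsd3 at 0.052, Eed at -0.023, Jarid2 at -0.048 and Carm1 at 0.0097. With the muscle covariate Setd7 was at -0.12, Setd2 at 0.025, Nsd3 at 0.050, Ezh1 at -0.0057, Eed at -0.014, Suz12 at 0.029 and Jarid2 at -0.096. Leaving out 1 library gave -0.051 to 0.039 for Setd2, -0.054 to 0.048 for Nsd3, -0.042 to 0.076 for Eed, -0.11 to 0.024 for Carm1, -0.029 to 0.051 for Ezh1, -0.10 to 0.016 for Kdm1a, -0.072 to 0.048 for Kdm7a, -0.080 to 0.50 for Setd7, -0.13 to 0.024 for Suz12, -0.081 to 0.17 for Jarid2 and -0.38 to 0.0031 for Dot1l (log2 fold changes, cKO minus WT).

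With 3 libraries a group, 3 of the 9 calls hold without each WT library in turn. Suv39h2 is the member of lowest CPM, and Setd7 and Dot1l have the largest standard errors of the members (0.278 and 0.201 on the log2 scale).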
